A study of Mus musculus with 6 samples.

Results

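Genes that encode subunits of the proteasome were followed in pancreatic islets of Dpy30 knockout mice and of control mice. The genes were taken by symbol: protein-coding genes of GENCODE release vM21 named Psma, Psmc or Psmd with a number, and Psmb1 to Psmb7. The immunoproteasome genes Psmb8 to Psmb10 were left out of this set. It holds 36 of the 54119 genes with transcripts in the tables, and 35 of its genes were among the 16430 genes with enough reads to be tested. The gene that fell short was Psma8. The symbol pattern also takes Psmc3ip, which encodes a recombination protein and no proteasome subunit, and Psmd5, Psmd9 and Psmd10, which encode chaperones that help to assemble the regulatory particle.

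The mice were males of the C57BL/6 strain, taken at postnatal day 24. Polyadenylated RNA was sequenced from 3 labelled control and 3 labelled Dpy30 knockout, with 1 mouse per library and 100 to 200 handpicked islets per mouse. All histone H3 lysine 4 methyltransferase complexes of the SET1 and MLL family contain DPY30, and the study asks about this mark in endocrine cells that mature after birth. The sources used here do not give the driver of the deletion, the deleted exons or the genotype of the controls beyond that word.

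The 26S proteasome degrades proteins that carry ubiquitin chains. Its 20S core is a barrel of alpha and beta rings, and the beta subunits PSMB5, PSMB6 and PSMB7 hold the catalytic sites inside it. The 19S regulatory particle caps the barrel: a base with a ring of ATPases unfolds the substrate, and a lid removes its ubiquitin. Beta cells make and fold large amounts of proinsulin, and misfolded chains leave the endoplasmic reticulum for the proteasome. The transcription factor NRF1 (gene Nfe2l1) raises proteasome genes together when proteasome activity falls, through antioxidant response elements in their promoters.

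The libraries held 17131515 to 25354384 estimated reads, and the tested proteasome genes took 0.212 to 0.261% of them in control and 0.29 to 0.323% in knockouts. Levels are given in CPM, read counts relative to a library size scaled by TMM, unless TPM is named. Knockout replicate 2 stood apart from the rest: the predicted gene Gm42418 took 14.7% of its reads and 0.099 to 0.236% in the other libraries. Dpy30 itself, summed over all its transcripts, read 25.6, 30.2 and 31.8 CPM in controls and 31.9, 53.2 and 30.7 CPM in knockouts. The groups overlapped (log2 fold change 0.40 with an SE of 0.23, adjusted p = 0.298), while the authors' deposited table lists Dpy30 as higher in knockout islets (log2 fold change 0.88, adjusted p = 0.000957). The targeted gene was thus not lower in the libraries labelled knockout. The sum counts any shortened transcripts too, so it does not check the labels, and every direction given here is between libraries as labelled. Markers of endocrine cells summed to 238981 to 319917 CPM in controls and 108174 to 157703 CPM in knockouts, with all 8 detected. Of these 8 markers 2 were called lower (5.84% of all genes) and 0 higher (4.1% of all genes).

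Most proteasome genes read slightly higher in knockout islets, by differences too small for any of them to pass the test. Of the 35 tested genes 33 had a log2 fold change above 0, against 50.5% of all tested genes. With total library size as the scaling, Psmd1 (0.12) and Psmd11 (0.01) were above 0 as well. Both stayed below the median of all tested genes in that setting, which was 0.14. In bulk islets a different make-up of cells and a different amount of RNA per cell cannot be told apart. In the test used here the median log2 fold change of the 35 genes was 0.27 (a 1.21-fold difference). The range was from -0.14 for Psmd11 to 0.76 for Psmb5, and the median of all tested genes was 0.01. In 20 of the 35 genes every knockout library lay above every control library, as it did in 17.6% of all tested genes. The edgeR quasi-likelihood test with Benjamini-Hochberg adjustment over all genes (threshold 0.05) called 0 of the 35 higher, where 4.1% of all genes were called higher, and 0 lower, where 5.84% were. In 0 genes did every knockout library lie below every control (17.2% of all genes). At an unadjusted p below 0.05 there were 13 genes, all higher in knockout islets (13.9% of all genes). limma-voom called 0 higher as well (4.1% of all genes), and DESeq2 called 4 higher, Psmb4, Psmb5, Psmc3 and Psmc4 (7.29% of all genes). With total library size as the scaling 2 were called higher, Psmb5 and Psmc3 (6.42% of all genes), with every gene of at least 1 read in the fit 1, Psmb5 (2.7%), and with the replicate number as a block 0 (6.93%). These counts describe the genes and do not test them as a set.

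**Figure D1:**
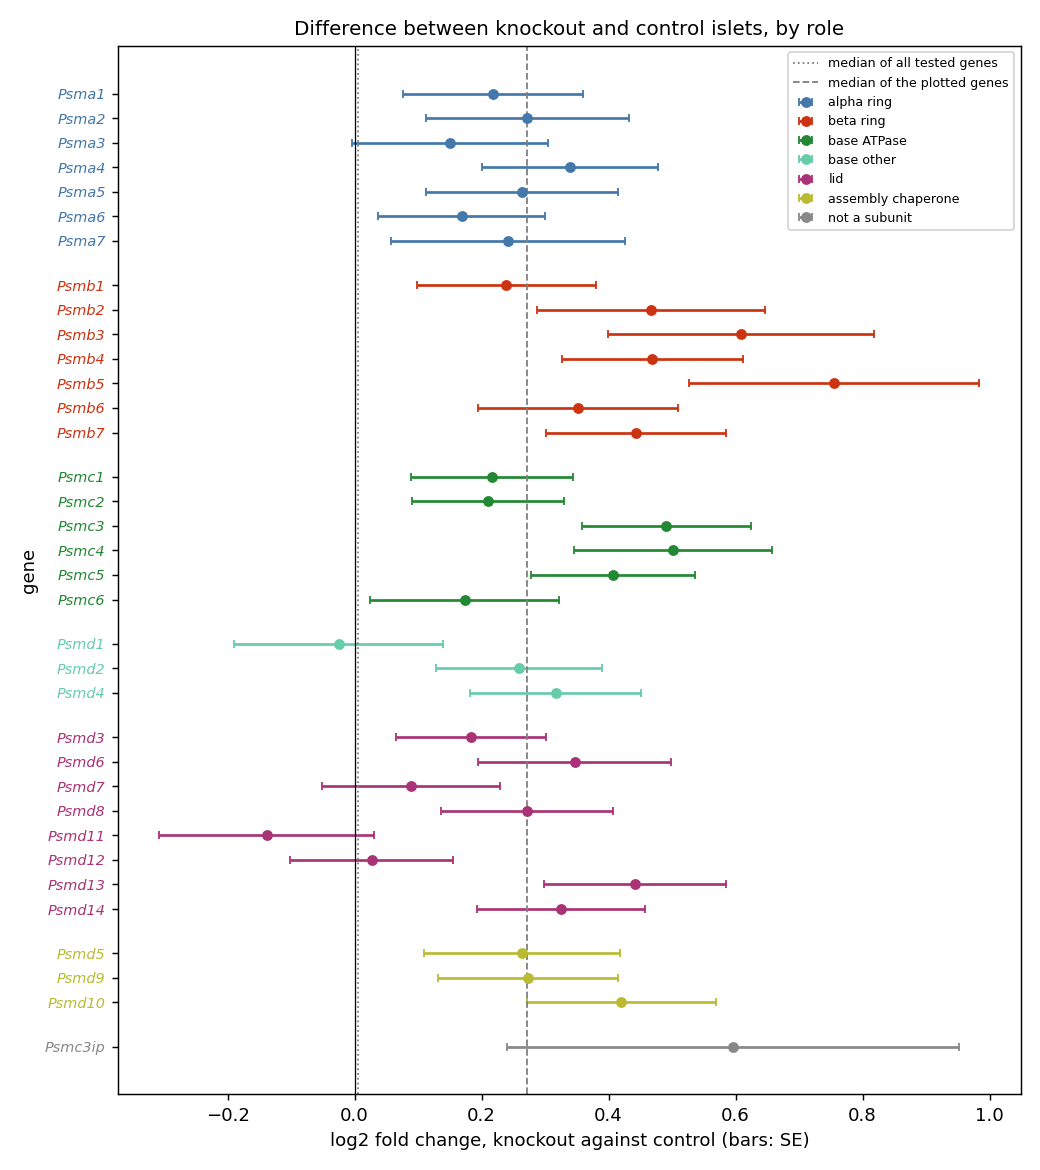
Log2 fold change of each tested proteasome gene between knockout and control islets, with its standard error, grouped and coloured by role. The dashed line marks the median of these 35 genes (0.27) and the dotted line that of all tested genes (0.01); the beta ring genes reach furthest to the right, and Psmd1 and Psmd11 lie left of 0.

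The libraries of each group were not alike. Control replicate 3 was the highest control in 33 of the 35 genes, and control replicate 1 the lowest in 23. Among knockout libraries, replicate 2 was the highest in 25 and replicate 3 the lowest in 22. As a median over the 35 genes, log2 CPM relative to the mean of all 6 libraries was -0.22, -0.19 and 0.00 for the controls, in the order of their numbers, against 0.14, 0.28 and 0.06 for the knockouts. Over all tested genes these medians were at most 0.01 from 0. Between libraries of the same number the knockout library was higher in 35 genes for number 1, in 32 for number 2 and in 23 for number 3, where the median log2 ratio was 0.05. Without control replicate 3, or without knockout replicate 3, every knockout library lay above every control in 29 of the 35 genes (21.7 and 21.2% of all genes). Without control replicate 1 or 2 it was 21 and 20 genes (22.1 and 21.1% of all genes), and without knockout replicate 1 it was 21 (23.9%). Without knockout replicate 2 it was 21 (23.9%) and the median log2 fold change was 0.24. Leaving out knockout replicate 2 moved the log2 fold change of 12 of the 35 genes by over 1.5 times, and leaving out any other library that of 4 to 5.

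**Figure D2:**
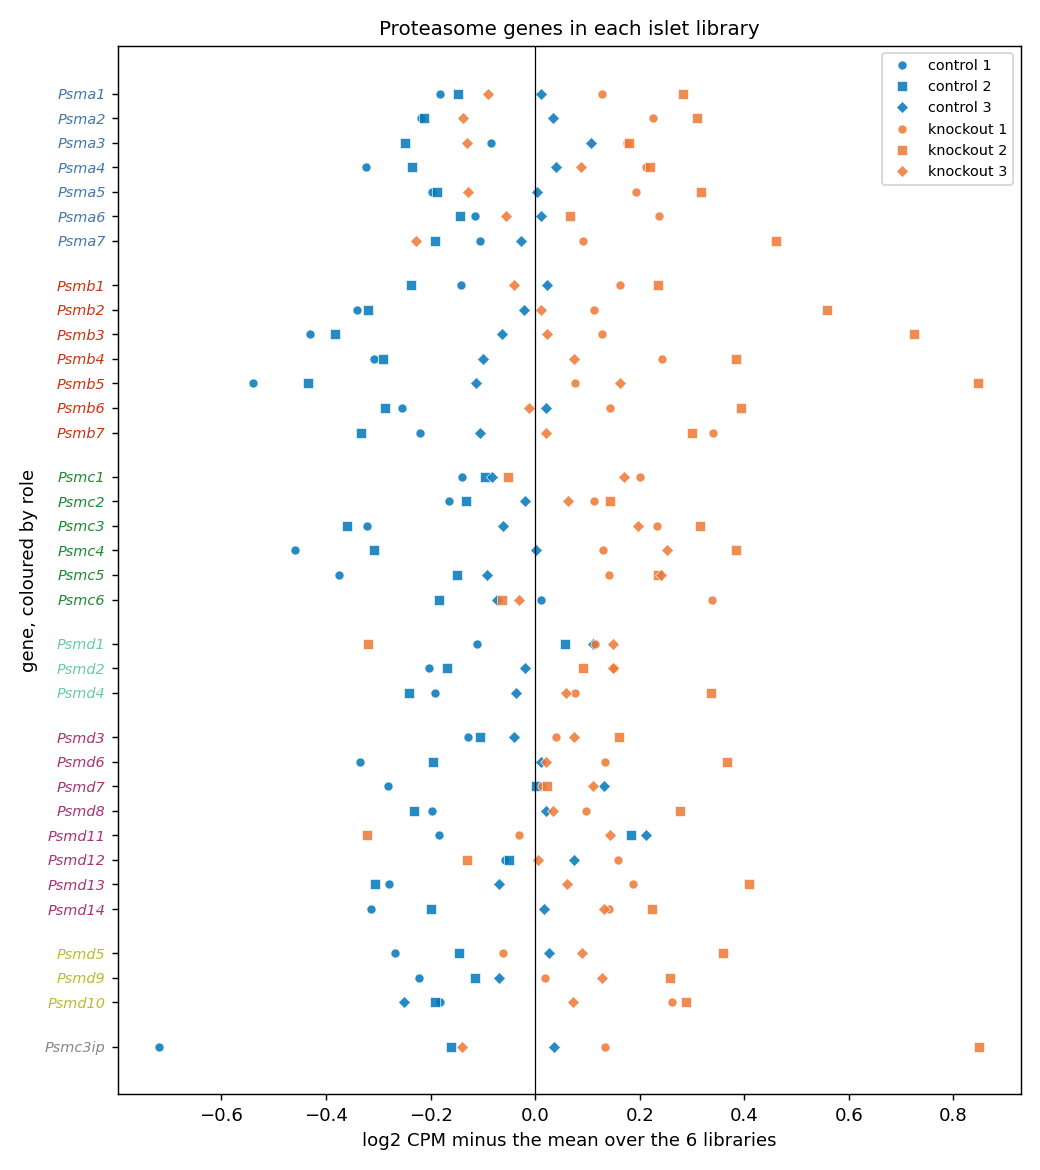
Level of each tested proteasome gene in each library, as log2 CPM minus the gene's mean over the 6 libraries; circles, squares and diamonds are replicates 1, 2 and 3, control in blue and knockout in orange. Control replicates 1 and 2 lie to the left in most rows, while control replicate 3 and knockout replicate 3 lie near each other and near 0.

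The alpha ring forms the gate through which proteins enter the barrel. All 7 tested alpha genes had a log2 fold change above 0 (median 0.24), and none was called. In 1 of the 7, Psma4, the knockout libraries all lay above the controls (17.6% of all genes). Psma4 read 49.2, 52.4 and 63.3 CPM in controls and 71.4, 71.8 and 65.5 CPM in knockouts. Each knockout library was above each control library, and the log2 fold change was 0.34 (SE 0.14, adjusted p = 0.158). Psma3 had the smallest difference of the ring and the highest level per length. It read 104.6, 93.4 and 119.5 CPM in controls against 125.3, 125.7 and 101.3 CPM in knockouts, and the groups overlapped (log2 fold change 0.15, SE 0.15, adjusted p = 0.574). For Psma1, Psma2, Psma5, Psma6 and Psma7, knockout replicate 3 lay within or below the range of the controls. Psma8, which encodes a testis form of the alpha subunit of Psma7, had 11, 1 and 3 reads in control and 10, 7 and 7 in knockout libraries.

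The beta ring held the largest differences. All 7 genes had a log2 fold change above 0, and the median was 0.47. In 5 (Psmb2, Psmb3, Psmb4, Psmb5 and Psmb7) the knockout libraries all lay above the controls (17.6% of all genes), but none of the 7 was called. Psmb5, which encodes the subunit with chymotrypsin-like activity, had the largest log2 fold change of the 35 genes. It read 47.6, 51.2 and 63.9 CPM in control (mean 54.2 ± 8.58, SD, n = 3) and 72.9, 124 and 77.4 CPM in knockouts (91.6 ± 28.5, SD, n = 3). The knockout libraries all lay above the controls, with replicate 2 far above the other two. The log2 fold change was 0.76 (SE 0.23, adjusted p = 0.0762, edgeR quasi-likelihood test), and without knockout replicate 2 it was 0.47 (adjusted p = 0.114). Psmb5 was called with DESeq2 (adjusted p = 0.0182), with total library size as the scaling (0.0388) and with every gene of at least 1 read in the fit (0.0395).

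Psmb7, the subunit with trypsin-like activity, read 76.3, 70.5 and 82.6 CPM in controls and 112.5, 109.4 and 90.1 CPM in knockouts. The groups did not overlap (log2 fold change 0.44, SE 0.14, adjusted p = 0.0877). Psmb6, the subunit with caspase-like activity, read 70.6, 69.1 and 85.5 CPM in controls and 93.1, 110.8 and 83.6 CPM in knockouts. Here knockout replicate 3 lay just below control replicate 3 (log2 fold change 0.35, SE 0.16, adjusted p = 0.192). Of the structural beta subunits, Psmb3 was at 38.6 ± 5.54 CPM in controls and 58.9 ± 16.4 CPM in knockouts (SD, n = 3), a log2 fold change of 0.61 (adjusted p = 0.106) that was 0.36 without knockout replicate 2. Psmb4 was at 117 ± 9.54 and 161 ± 17.2 CPM (SD, n = 3; log2 fold change 0.47, adjusted p = 0.0779). Psmb1 had the smallest difference of the ring, with 99.4, 93.02 and 111.4 CPM in control, 122.8, 129.2 and 106.6 CPM in knockouts, and overlapping groups (log2 fold change 0.24, SE 0.14, adjusted p = 0.312).

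Promoter windows of RefSeq (GRCm38.p6, 250 bases before to 50 after each start) matched 29 of the 36 genes, with 31 windows. The core of the antioxidant response element, written TGACNNNGC and searched on both strands, was in 5 of the 31 windows, those of Psmb5, Psmb6, Psmc6, Psmd9 and Psmd12, which is 16.1% against 12.4% of all 32851 windows. The windows of Psmb5 and Psmb6 are shown as those of catalytic subunits, with the core beginning 47 and 9 bases before the start. In Psmd9 it began 31 bases before the start, in Psmc6 227 and in Psmd12 247 bases before it. The catalytic subunit gene Psmb7 and the ATPase gene Psmc3 were among the genes without a matched window. The window of Psmd11, the gene of lowest log2 fold change, is shown as 1 of those without the core. Capitals mark the matched core.
Psmb5, chr14:54617946-54618245, minus strand: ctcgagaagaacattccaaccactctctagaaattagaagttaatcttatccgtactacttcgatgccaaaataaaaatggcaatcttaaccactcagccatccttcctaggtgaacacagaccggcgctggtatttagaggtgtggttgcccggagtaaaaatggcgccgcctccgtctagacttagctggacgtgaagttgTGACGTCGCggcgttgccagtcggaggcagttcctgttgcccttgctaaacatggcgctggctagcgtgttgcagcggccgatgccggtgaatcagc
Psmb6, chr11:70525107-70525406, plus strand: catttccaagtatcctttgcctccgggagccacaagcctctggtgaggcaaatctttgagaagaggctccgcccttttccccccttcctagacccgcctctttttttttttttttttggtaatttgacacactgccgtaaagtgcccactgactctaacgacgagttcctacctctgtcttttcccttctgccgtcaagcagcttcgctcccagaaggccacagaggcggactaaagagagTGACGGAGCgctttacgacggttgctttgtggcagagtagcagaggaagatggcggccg
Psmd11, chr11:80428365-80428664, plus strand: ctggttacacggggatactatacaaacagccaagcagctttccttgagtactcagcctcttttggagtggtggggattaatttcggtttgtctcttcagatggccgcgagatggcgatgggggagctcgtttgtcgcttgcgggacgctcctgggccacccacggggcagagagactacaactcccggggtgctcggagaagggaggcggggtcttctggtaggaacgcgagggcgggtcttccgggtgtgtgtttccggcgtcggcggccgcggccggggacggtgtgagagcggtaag
The log2 fold changes of the genes with the core ran from 0.03 for Psmd12 and 0.17 for Psmc6 to 0.27 for Psmd9, 0.35 for Psmb6 and 0.76 for Psmb5. Those of the genes with a window and no core ran from -0.14 for Psmd11 to 0.61 for Psmb3. A part of the core in the differences was not tested. GGGCGG, the GC box, was in 18 of the 31 windows (58.1%, against 35.7% of all windows), and CCAAT in 12 (38.7%, against 37.4%). CACGTG was in 2 windows (6.45%, against 7.15% of all windows), and TGACGTCA in 0 (1.79% of all windows). A further motif, not spelled out here, was in 1 window, that of Psma2 (3.23%, against 0.971% of all windows). All motifs were searched on both strands. A match is a run of letters in the window and no measured site.

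The 6 ATPases of the base unfold the substrate and thread it into the core. All 6 had a log2 fold change above 0 (median 0.31), and none was called. In 5 the knockout libraries all lay above the controls (17.6% of all genes). Psmc3 had the lowest adjusted p of the 35 genes: it read 58.2, 56.7 and 69.7 CPM in controls and 85.5, 90.6 and 83.4 CPM in knockouts (log2 fold change 0.49 with an SE of 0.13, adjusted p = 0.0553). The lowest knockout library lay above the highest control by more than the spread of the knockout libraries. Psmc4 had the largest difference of the ring, with 46.7, 51.8 and 64.3 CPM in controls and 70.2, 83.7 and 76.5 CPM in knockouts (log2 fold change 0.50, SE 0.16, adjusted p = 0.0821). Psmc5 was at 59.8 ± 6.05 and 79.3 ± 3.06 CPM (SD, n = 3; log2 fold change 0.41, adjusted p = 0.0855). Psmc6 had the smallest difference, with 68.9, 60.2 and 65.05 CPM in controls and 86.5, 65.5 and 67.0 CPM in knockouts. Only knockout replicate 1 exceeded all the controls there (log2 fold change 0.17, SE 0.15, adjusted p = 0.493).

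The base also holds the scaffold subunits PSMD1 and PSMD2 and the ubiquitin receptor PSMD4. Psmd4 read 55.8, 53.96 and 62.2 CPM in controls and 67.3, 80.5 and 66.5 CPM in knockouts, without overlap (log2 fold change 0.32, SE 0.13, adjusted p = 0.173). Psmd1 read 114 to 133 CPM in controls and 133, 98.6 and 137 CPM in knockouts. Knockout replicate 2 was its lowest library of all 6, and the log2 fold change was -0.03 (SE 0.16, adjusted p = 0.943), or 0.11 without that library (adjusted p = 0.602). Psmd2, the gene of most reads among the 35, was at 190 ± 13.1 CPM in controls and 227 ± 5.3 CPM in knockouts (SD, n = 3), without overlap (log2 fold change 0.26, adjusted p = 0.242).

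Among 8 lid genes 7 had a log2 fold change above 0, the median was 0.23, and none was called. In 5 (Psmd3, Psmd6, Psmd8, Psmd13 and Psmd14) the knockout libraries all lay above the controls (17.6% of all genes). Psmd13, a structural lid subunit, read 59.6, 58.5 and 69.0 CPM in controls and 82.4, 96.1 and 75.5 CPM in knockouts (log2 fold change 0.44, SE 0.14, adjusted p = 0.0918). Psmd14, the deubiquitinase of the lid, was at 36.4 ± 4.3 and 45.6 ± 1.61 CPM (SD, n = 3; log2 fold change 0.32, adjusted p = 0.158). Psmd11, a lid subunit known to promote assembly of the 26S particle in stem cells, went the other way in its mean. It read 47.8, 61.7 and 62.9 CPM in controls and 53.1, 43.4 and 59.99 CPM in knockouts, with knockout replicate 2 the lowest library and overlapping groups (log2 fold change -0.14, SE 0.17, adjusted p = 0.643). Psmd12 (0.03) and Psmd7 (0.09) had log2 fold changes near 0.

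The 3 chaperones of base assembly were lower per length than the tested subunits, at 10.1 to 14.7 TPM in control islets against 24.04 TPM for Psmd11, the lowest subunit. Psmd10 (gankyrin) read 14.4, 14.3 and 13.8 CPM in controls and 19.7, 20.04 and 17.2 CPM in knockouts, without overlap (log2 fold change 0.42, SE 0.15, adjusted p = 0.114). Psmd5 had the smallest difference of the 3, with 30.6, 33.3 and 37.5 CPM in control, 35.3, 47.3 and 39.2 CPM in knockouts, and overlapping groups (log2 fold change 0.26, adjusted p = 0.31; 0.14 without knockout replicate 2). Psmc3ip, taken by its symbol, had the lowest read level of the 35 genes, with 1.96, 2.93 and 3.37 CPM in controls and 3.61, 5.99 and 2.97 CPM in knockouts (log2 fold change 0.60, SE 0.36, adjusted p = 0.319; 0.26 without knockout replicate 2).

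Other genes of the pathway came from a list of 41, of which 38 were tested. Of these, 1 gene was called higher (4.1% of all genes) and 0 were called lower (5.84% of all genes), and without control replicate 1, 2 or 3 the count called higher was 0. The median log2 fold change was 0.06, 23 of the 38 had a value above 0, and in 9 the knockout libraries all lay above the controls (17.6% of all genes). Ubb, which encodes polyubiquitin, was not called (log2 fold change 0.14, adjusted p = 0.7), nor was Rps27a (0.08, adjusted p = 0.781). Ubiquitin genes share near-identical coding sequence, so the division of reads among them is an estimate. The ubiquitin-activating enzymes Uba1 (-0.04) and Uba6 (-0.05) and the shuttle gene Rad23b (-0.10) were not called. Among the ubiquilin shuttles the log2 fold change was -0.54 for Ubqln2 (adjusted p = 0.203) and 0.35 for Ubqln4 (adjusted p = 0.186).

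Assembly of the 20S core needs its own chaperones. All 5 (Psmg1 to Psmg4 and Pomp) had a log2 fold change above 0, with a median of 0.45. In edgeR 0 were called higher (4.1% of all genes), and 2 were higher at an unadjusted p below 0.05 (13.9% of all genes). With DESeq2 0 were called higher (7.29% of all genes). Pomp, the chaperone of beta subunit assembly, read 47.1, 50.4 and 57.8 CPM in controls and 67.9, 74.9 and 63.8 CPM in knockouts, without overlap (log2 fold change 0.41, SE 0.13, adjusted p = 0.0935). Of the activators, Psme3, which encodes the nuclear cap PA28-gamma, differed by 0.42 on the log2 scale (adjusted p = 0.0754; 0.0437 with DESeq2). Psme1 read 47.9, 43.5 and 43.4 CPM in controls and 53.4, 56.1 and 50.6 CPM in knockouts (log2 fold change 0.25, adjusted p = 0.219). Psme2 read 53.2, 54.3 and 61.8 CPM against 63.3, 78.5 and 54.4 CPM, with overlap (0.21, adjusted p = 0.438; 0.06 without knockout replicate 2). For Akirin2, whose protein carries proteasomes into the nucleus, the log2 fold change was 0.40 (adjusted p = 0.0727), and for Ecpas, whose protein binds the 26S particle, it was -0.40 (adjusted p = 0.228). All knockout libraries of Ecpas, and of Txnl1, lay below all controls (17.2% of all genes).

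No difference passed the test in the genes of factors known to control proteasome genes. Nfe2l1 read 259.9, 268.0 and 231 CPM in controls and 259.9, 212 and 287 CPM in knockouts (log2 fold change 0.00, SE 0.16, adjusted p = 0.997). Nfe2l2, which encodes the related factor NRF2, read 61.8, 42.7 and 41.9 CPM in controls and 49.05, 39.9 and 39.6 CPM in knockouts (-0.19, SE 0.19, adjusted p = 0.554). Of the 6 tested genes of this control 0 were called with edgeR (9.95% of all genes) and 0 with DESeq2 (16.0% of all genes). At an unadjusted p below 0.05 in edgeR there were 0 as well, against 4512 of all 16430 tested genes. With 6 genes, counts of 0 do not set them apart from other genes. NRF1 is activated by cleavage of its protein, which RNA levels do not measure.

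Immunoproteasome genes encode catalytic subunits that replace PSMB5, PSMB6 and PSMB7 in immune cells and under interferon. Psmb8 read 13.2, 11.02 and 13.1 CPM in controls and 15.3, 17.8 and 13.7 CPM in knockouts (log2 fold change 0.32, adjusted p = 0.281). Psmb9 read 8.97, 7.67 and 7.23 CPM against 5.66, 9.58 and 5.49 CPM (-0.21, adjusted p = 0.659; -0.51 and 0.177 without knockout replicate 2), and Psmb10 12.4, 13.3 and 16.4 CPM against 14.9, 24.95 and 20.3 CPM (0.51, adjusted p = 0.182; 0.33 without knockout replicate 2). None was called. TPM, which divides by transcript length, allows a comparison within each library. Psmb9 made up 6.14, 6.15 and 4.65% of the summed TPM of Psmb9 and Psmb6 in control and 3.03, 4.38 and 3.83% in knockouts. The groups did not overlap (exact two-sided permutation test, p = 0.1, the smallest that 3 against 3 allows). The share of Psmb8 in its pair with Psmb5 was 17.2 ± 2.73% and 13.3 ± 2.45% (SD, n = 3; exact permutation p = 0.2), and that of Psmb10 in its pair with Psmb7 was 17.6 ± 1.58% and 19.6 ± 4.63% (SD, n = 3; exact permutation p = 0.5). Adjusted over these 3 comparisons the values are 0.3 for Psmb9 and Psmb8 and 0.5 for Psmb10, and this design cannot reach a p of 0.05. Markers of immune cells summed to 28.8 to 48.1 CPM in controls and 42.7 to 60.05 CPM in knockouts, with all 7 detected. Of the 6 tested, 1 was called higher (4.1% of all genes) and 0 lower (5.84% of all genes). The part of immune cells in the result was not tested.

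**Figure D3:**
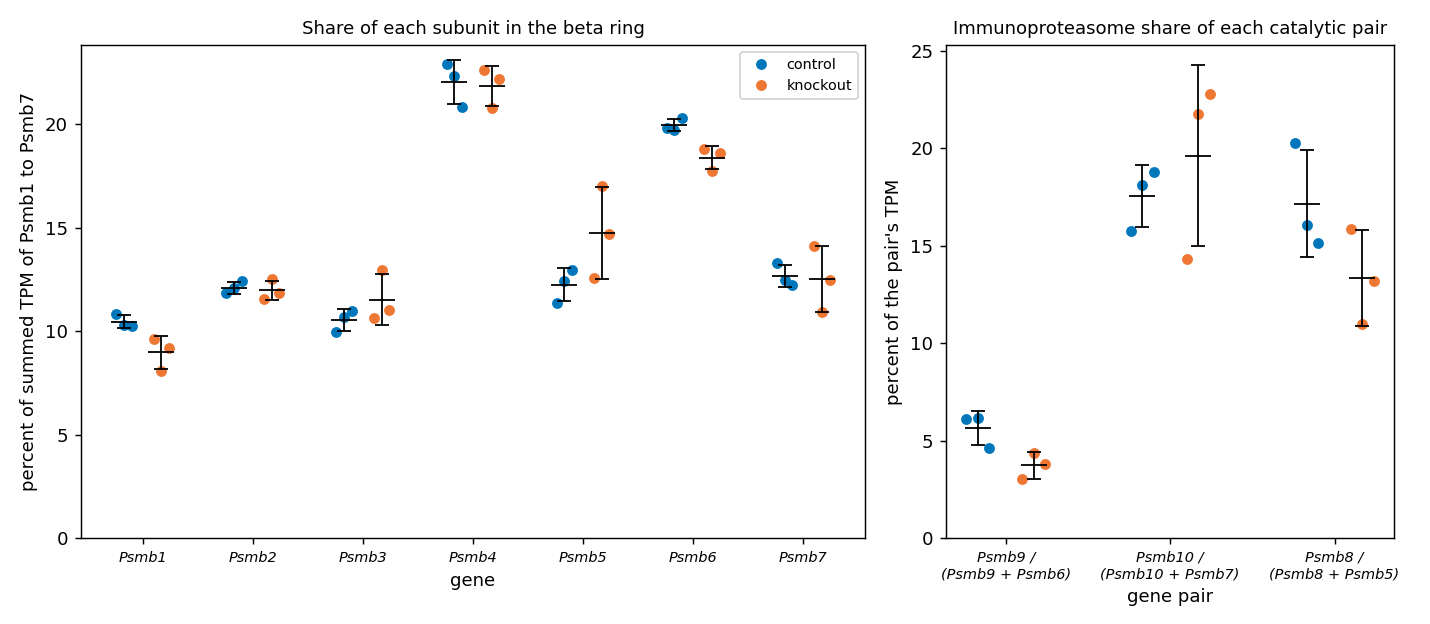
Left, share of each subunit in the summed TPM of the beta ring genes Psmb1 to Psmb7, in percent; right, share of the immunoproteasome gene in each catalytic pair. Points are libraries and bars mean and SD of 3; the Psmb1 and Psmb6 shares of the knockout libraries all lie below the controls, and the Psmb5 points overlap.

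Within the beta ring, Psmb4 was the highest per length, at 22.02 ± 1.07% of the ring's TPM in control and 21.9 ± 0.976% in knockouts (SD, n = 3), and Psmb1 the lowest in its mean, at 10.5 ± 0.315% and 8.98 ± 0.799%, close to Psmb3 in controls at 10.5 ± 0.529%. The share of Psmb5 was 11.4, 12.4 and 12.97% in controls and 12.6, 17.02 and 14.7% in knockouts, so that knockout replicate 1 lay inside the control range. The share of Psmb6 was 19.8, 19.7 and 20.3% in controls and 18.8, 17.7 and 18.6% in knockouts, without overlap. Across roles, mean TPM in control islets had a median of 64.0 over the alpha genes, 67.5 over the beta genes, 46.4 over the ATPases and 37.4 over the lid genes. The highest gene stood 3.14-fold above the lowest in the alpha ring (Psma3 over Psma2), 2.1-fold in the beta ring (Psmb4 over Psmb1), 1.62-fold in the ATPase ring (Psmc1 over Psmc6) and 2.68-fold in the lid (Psmd6 over Psmd11). The same genes were highest and lowest in knockout islets. TPM between groups were not compared, since insulin transcripts took 13.6 to 21.9% of reads in controls and 6.51 to 9.66% in knockout libraries.

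Summed over its 14 genes, the core read 1002, 983.01 and 1165 CPM in controls and 1333, 1513 and 1146 CPM in knockouts. Knockout replicate 3 lay within the range of the controls. The sum of the 17 base and lid genes was tighter, with 1200.5, 1258 and 1387 CPM in controls and 1523, 1508 and 1498 CPM in knockouts, without overlap. The mean of knockout islets was 26.8% higher for the core and 17.7% higher for the base and lid. Knockout replicate 2 had the highest core sum of all libraries but not the highest base and lid sum. These percentages were not taken without that library, so they do not rank the core above the base and lid.

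Reads assigned to transcripts that GENCODE does not class as protein-coding, such as those with a retained intron, were a small part in most genes. Their share averaged under 10% in both groups in 28 of the 35 genes and over 50% in 2, Psma3 and Psmc3ip. In Psma3 they held 65.1, 78.3 and 74.9% of reads in controls and 74.8, 76.5 and 73.9% in knockouts, and a transcript that GENCODE classes as a target of nonsense-mediated decay held 48.3% of all reads of the gene. The groups stood apart in 1 of the 35 genes, Psmd5, where the share was 11.5, 10.2 and 13.3% in controls and 9.45, 5.45 and 9.16% in knockouts. These shares were not tested, and no count over all genes is set beside this 1 gene. Salmon divides by estimate the reads that fit several transcripts.

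Shorter members tended to have the larger differences. The 35 genes had a median effective length of 1135 bases, against 2223 over all tested genes. Over these 35 genes log2 fold change and length had a Spearman correlation of -0.56, and of -0.34 without knockout replicate 2; the genes share the same 6 libraries and are not independent. The 17 shorter genes had a median log2 fold change of 0.35 and the 18 longer ones 0.25, or 0.26 and 0.19 without knockout replicate 2. In that library the median level relative to the 6-library mean was 0.37 for the shorter and 0.19 for the longer genes, and in knockout replicate 3 it was 0.02 and 0.08. An offset for the average transcript length of each gene, which follows changes of isoform and not a length bias, left the median at 0.25. The part of length in the result was not tested.

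**Figure D4:**
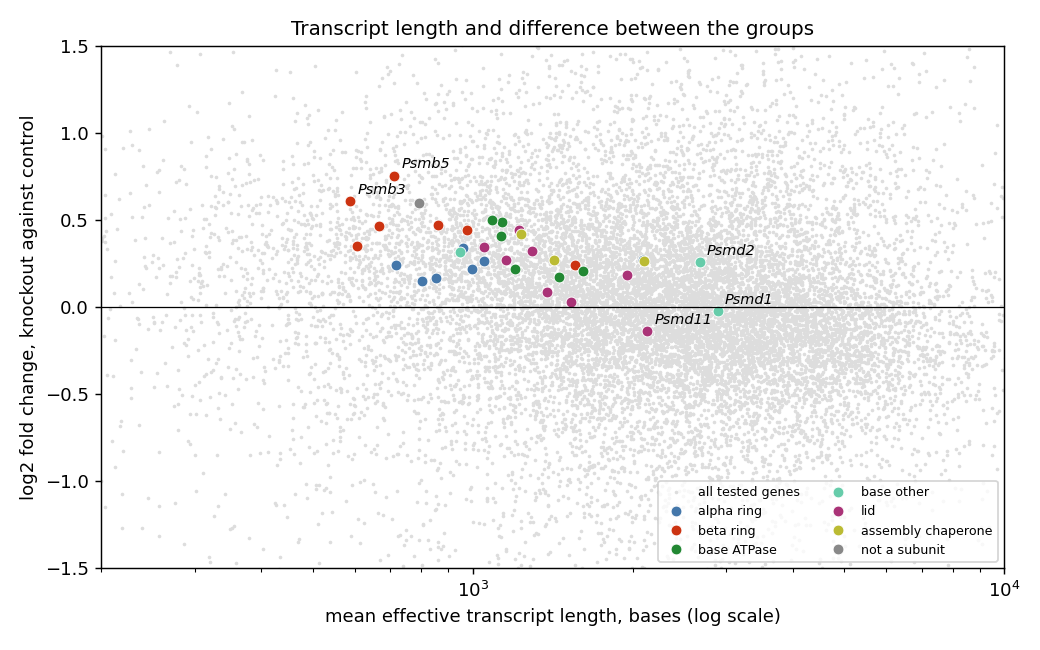
Log2 fold change against mean effective transcript length (log axis) for all tested genes in grey and the 35 proteasome genes coloured by role; 1070 of 16430 genes lie outside the plotted range. The short beta ring genes Psmb3 and Psmb5 lie highest, and the long Psmd1 and Psmd11 lie at or below 0. Psmd2, also long, lies above 0 (0.26).

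Markers of other cell types moved with the groups in part. Acinar markers summed to 1187 to 4119 CPM in controls and 2854 to 17359 CPM in knockout libraries, highest in knockout replicate 3, where proteasome genes were mostly lowest of the knockout libraries. None of the 15 acinar markers was at 0 in all libraries. Of the 14 tested, 1 was called lower (5.84% of all genes) and 0 higher (4.1% of all genes). With the acinar level as a covariate the median log2 fold change was 0.43 and 1 of the 35 genes, Psmb3, was called higher (adjusted p = 0.0449; 1.38% of all genes). Endothelial markers summed to 442 to 558 CPM in controls and 638 to 820.5 CPM in knockouts. Of these 6 markers 4 were called higher (4.1% of all genes) and 0 lower (5.84% of all genes). Mesenchymal markers summed to 193 to 417 and 342 to 720 CPM, and 1 of 7 was called higher (4.1% of all genes) and 0 lower (5.84%). Ductal markers summed to 274 to 332 CPM in controls and 280 to 346 CPM in knockouts. Of the 5 tested, 1 was called higher (4.1% of all genes) and 1 lower (5.84% of all genes). None of these markers was at 0 in all libraries, and their part in the result was not tested.

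The authors' deposited table lists all 36 genes. In it 3 have an adjusted p below 0.05, all higher in knockout islets: Psmb5 (log2 fold change 0.62, adjusted p = 0.0232), Psmc3 (0.42, 0.0356) and Psmb4 (0.40, 0.0409), where 6.66% of the genes with an adjusted p in the authors' deposited table are higher. Of the 35 genes tested here, 32 have a log2 fold change above 0 in the authors' deposited table, with a median of 0.21. How those log2 fold changes were estimated is not given, so their size may not compare directly with the values of the test used here. These 3 genes are among the 4 that DESeq2 called on the summed reads.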

How the data were processed

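Estimated counts, TPM and effective lengths per transcript were deposited for each library in the layout of Salmon, per the file headers. The submitters' processing notes name Trimmomatic, Salmon, DESeq2, GRCm38 and mm10, with no versions or settings. Poly(A) RNA came from 1000 ng of total RNA, and the directional libraries had 9 amplification cycles, per the labels' protocols. The authors deposited a table of log2 fold changes and p-values too, read here for comparison; 94.7% of 16425 shared genes had the same sign in it. A scaled table of 6 columns was not used.

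Transcripts (139852 of 140948 matched, with 99.6 to 99.7% of reads) were assigned to GENCODE vM21 genes, and their estimated counts were added up by gene, then rounded. The fit took genes past filterByExpr (minimum count 10), TMM factors and group as the only term, in edgeR 4.0.16 (R 4.3.3), with a two-sided quasi-likelihood test. The SE comes from the log2 fold change and its F statistic. Log2 CPM used a prior count of 2. The test was checked on simulated counts. There it missed most changes of 1.5-fold and of 2-fold, and the share of its calls on unchanged genes was above the threshold of 0.05. Smaller differences, such as the median of the members, were not simulated.

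The members and lists were chosen with earlier results of these data known. Values in every library are given for called genes (except as below), the catalytic subunits, the genes of highest and lowest log2 fold change in each role, and 8 set pathway genes; Psmb3, Psmb4, Psmc3, Psmc5, Psmd2, Psmd14 and other pathway genes were added after their values were seen. Psmb11 and Nfe2l3 had too few reads for the test, Paaf1 was not analysed here, and some pathway genes are not reported here.

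Deviations from group means correlated at 0.427, 0.135 and 0.196 between libraries of replicate numbers 1, 2 and 3. Unequal numbers gave -0.318 to 0.14, the highest of them above the value of 0.135 for number 2. The test used here did not pair libraries. Equal numbers were taken as pairs only in the replicate block, an alternative fit. No label gives the meaning of the numbers. Alternatives were DESeq2 1.42.0, limma-voom (limma 3.58.1), other scalings and filters, the length offset, the replicate block, an acinar covariate and leaving out each library.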

Additional observations from a re-analysis of the deposited data

How the results depend on the processing

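The count of members called higher, 0 in the test used here, was 4 with DESeq2, 2 with total library size as the scaling (Psmb5 and Psmc3), 1 with every gene of at least 1 read (Psmb5) and 1 with the acinar covariate (Psmb3). It was 0 (1.44 to 6.93% of all genes) with limma-voom, upper-quartile scaling, without the reads of Ins1, Ins2 and Gm42418, with the length offset, with the replicate block and without any 1 library; 0 members were called lower in any of these settings (2.59 to 8.73% of all genes). The median log2 fold change of members was 0.39 with total library size, which moved the median of all genes to 0.14 and their calls from 674 higher and 960 lower to 1054 and 674, so that members stood 0.25 above all genes there and 0.27 in the test used here. It was 0.43 with the acinar covariate (652 calls over all genes) and 0.24 to 0.38 without 1 library each. With the length offset and without knockout replicate 2 together, a setting chosen after seeing the data, it was 0.19. With the replicate block the median was 0.27 and 0 members were called (12 with an unadjusted p below 0.05), against 2430 calls over all genes; the pairing changed no call of a member or a pathway gene named here. Over all genes DESeq2 made 2633 calls, and leaving out 1 library left 737 to 1330. Pathway genes called higher were 2 with DESeq2 (Psme3 among them) and 0 to 1 without 1 library each.

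Of the 35 members 4 changed sign in at least 1 setting (Psmd1, Psmd7, Psmd11 and Psmd12), as did 19 of the 38 pathway genes. Without 1 library each, log2 fold changes ran from -0.02 to 0.18 for Psmd7, -0.05 to 0.09 for Psmd12, 0.06 to 0.25 for Psma3, 0.03 to 0.25 for Psmc6, -0.06 to 0.24 for Ubb, -0.02 to 0.20 for Rps27a, -0.15 to 0.03 for Uba1, -0.21 to 0.10 for Uba6, -0.16 to -0.03 for Rad23b, -0.77 to -0.31 for Ubqln2 and -0.54 to -0.23 for Ecpas. Nfe2l1 had a log2 fold change of -0.00165 with DESeq2, -0.0106 with limma-voom, -0.0162 with every gene of at least 1 read, -0.0215 with the length offset, -0.00696 with the replicate block, -0.21 with the acinar covariate and -0.10 to 0.11 without 1 library each. Psmd1 read 0.12 with total library size, 0.10 with the length offset without knockout replicate 2 and -0.11 to 0.11 without 1 library each, Psmd11 0.00835 with total library size, and Nfe2l2 -0.30 to 0.0141 without 1 library each.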
